A study of Mus musculus with 12 samples.

Results

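Transcript levels of 10 genes known to be induced by the ERK branch of mitogen-activated protein kinase signaling, some of which encode inhibitors of that branch, were examined in differentiating mouse muscle cells. The genes were the phosphatases *Dusp4* and *Dusp6*, the Sprouty inhibitors *Spry1*, *Spry2* and *Spry4*, the ETS transcription factors *Etv4* and *Etv5*, the immediate-early factor *Egr1*, the AP-1 subunit *Fosl1* and the early gene *Phlda1*. They were chosen with earlier results of these data known. Their rows were taken by name from the 55536 gene rows of a table of raw read counts, and all 10 were among the 14499 genes with enough counts to be tested. The study asked how the extracellular matrix under the cells affects muscle differentiation and fiber type. It used C2C12GFP cells, a GFP-expressing derivative of the C2C12 mouse myoblast line, differentiated on uncoated plates (control) or with Collagen I, fibronectin or Geltrex™ coated onto the plastic. Collagen I and fibronectin are single matrix proteins, whereas Geltrex™ is a reduced growth factor basement membrane extract, mainly laminin, collagen IV and entactin, laid down as a thin gel. Each of the 4 groups had 3 samples, giving 12 in all, every one from the same cell line and moved to the same differentiation medium. The labels do not say whether the 3 samples of a group were separate cultures, so p-values measure the spread between these samples, which may be technical, and the day of RNA sampling is not given in the sources used here.

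ERK is the last kinase of a relay that runs from growth factor receptors and integrins through Ras, Raf and MEK. Active ERK phosphorylates transcription factors that induce immediate-early genes within minutes, and then a set of inhibitors that dampen the relay, so the transcripts of these inhibitors are widely read as a record of ERK pathway output. In myoblasts, sustained ERK signaling favors proliferation and holds back the onset of terminal differentiation, while later steps of muscle formation also use the pathway.

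Each library held between 22520404 and 27351766 counts assigned to genes. Replicates of every group differed by more than sampling noise, with a chi-square per degree of freedom of 2.18 to 4.54 within the Geltrex™ group and 7.71 to 64.6 within the other groups. The 10 myotube markers, such as *Myog* and *Ckm*, summed to 8140 to 9075 CPM, that is, read counts relative to library size after TMM scaling, in control, 8738 to 9332 on Collagen I, 2625 to 2960 on fibronectin and 3731 to 4158 on Geltrex™. The 10 markers of undifferentiated or dividing myoblasts summed to 216 to 263 CPM in control, 188 to 196 on Collagen I, 628 to 817 on fibronectin and 656 to 708 on Geltrex™. Of the latter list, 8 markers, all of dividing cells, were higher than control on both fibronectin (17.1% of all genes tested) and Geltrex™ (16.4%). *Pax7* and *Myf5*, the markers that define undifferentiated myoblasts, did not pass the test in either comparison, so the higher sums came mainly from the 8. *Pax7*, with 2 to 19 counts per sample, held 0.128 to 0.316 CPM on Geltrex™, below all control samples (0.367 to 0.756). *Myf5* means were 33.0 CPM on Geltrex™ and 34.2 in control. No marker of endothelial, leukocyte, adipocyte, epithelial or Schwann cells exceeded 8 counts in any sample, with *Adgre1* and *Epcam* at 0 throughout. In bulk RNA, fewer cells of a type and less RNA per cell cannot be told apart. The part of these marker differences in the results that follow was not tested.

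All 10 genes were expressed most highly on Geltrex™, and for each of them every Geltrex™ sample lay above all 9 other samples. Across the 14499 genes tested, 8.21% were arranged in this way, a share that cannot test a list chosen with earlier results known. Relative to control the increase ran from 1.44-fold for *Spry1* to 6.63-fold for *Fosl1*. Collagen I and fibronectin gave no such common shift, and the lowest group mean was found on Collagen I for 4 genes, on fibronectin for 4 and in control for 2.

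**Figure D1:**
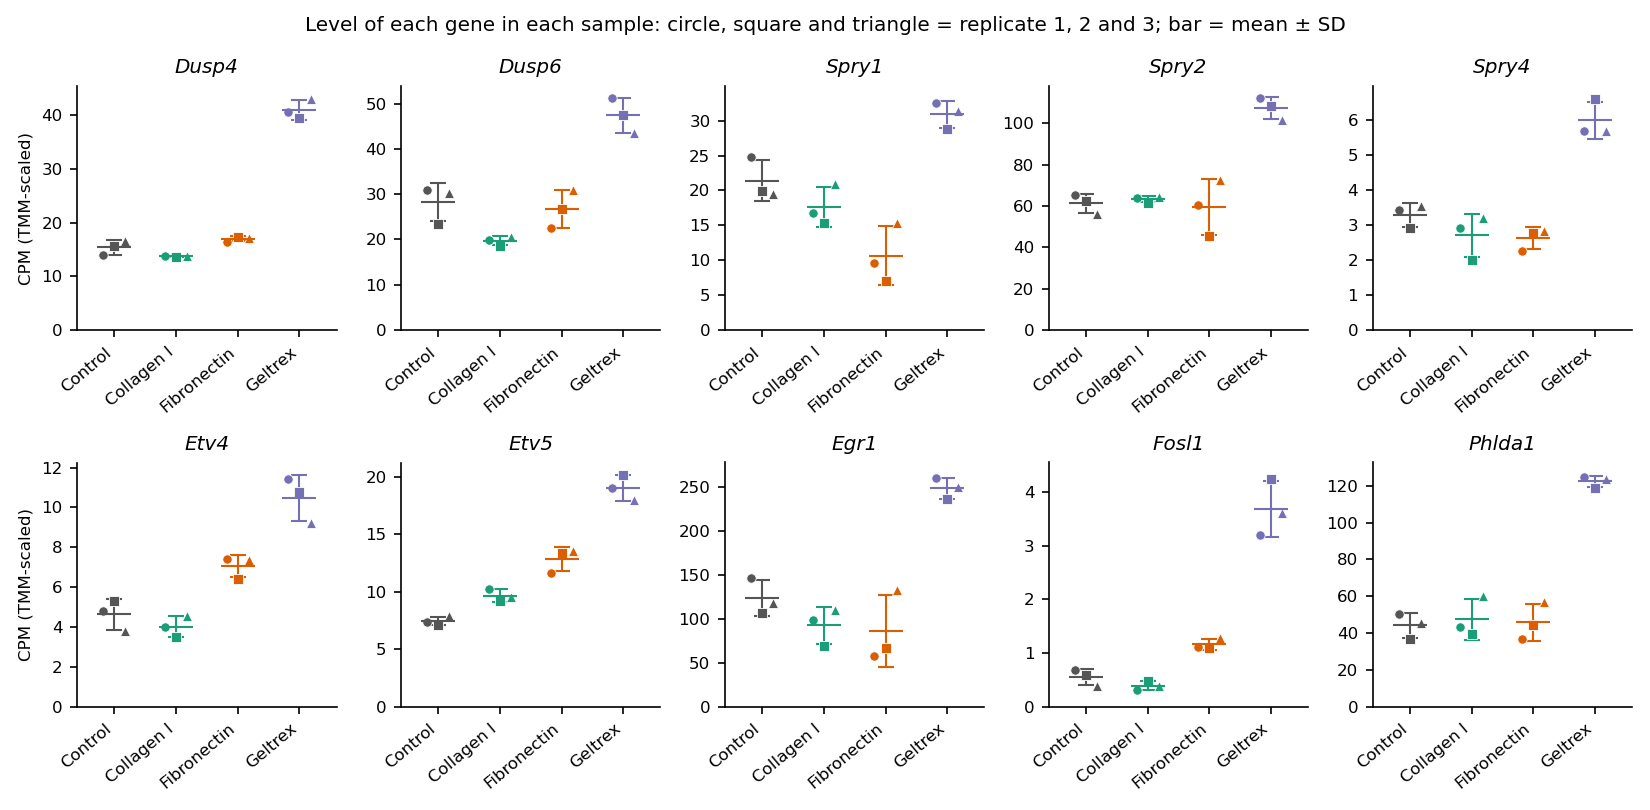
Level of each of the 10 genes in each of the 12 samples, in CPM after TMM scaling on a linear axis that starts at 0, with circles, squares and triangles for replicates 1, 2 and 3 and bars for the group mean ± SD. In every panel the 3 Geltrex™ samples sit above the 9 others, by the narrowest margin for *Spry1* and the widest for *Fosl1*.

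Upstream sequences are shown for 3 of the feedback inhibitors, because ETS factors, which ERK phosphorylates and which include the products of *Etv4* and *Etv5*, bind DNA through a GGAA core. The 250 bases before the RefSeq start of each gene (GRCm38.p6) are printed 5′ to 3′ on the gene's strand, with each GGAA, or TTCC where the core lies on the other strand, in capitals. The windows are chr10:99262981-99263230 on the plus strand for *Dusp6*, chr3:37639697-37639946 on the plus strand for *Spry1*, and chr14:105896820-105897069 on the minus strand for *Spry2*.
Dusp6: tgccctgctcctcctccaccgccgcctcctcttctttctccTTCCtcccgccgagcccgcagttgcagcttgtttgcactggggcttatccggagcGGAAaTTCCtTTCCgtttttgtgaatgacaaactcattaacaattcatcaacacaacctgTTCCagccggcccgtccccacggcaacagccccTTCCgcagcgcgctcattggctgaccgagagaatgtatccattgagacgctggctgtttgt
Spry1: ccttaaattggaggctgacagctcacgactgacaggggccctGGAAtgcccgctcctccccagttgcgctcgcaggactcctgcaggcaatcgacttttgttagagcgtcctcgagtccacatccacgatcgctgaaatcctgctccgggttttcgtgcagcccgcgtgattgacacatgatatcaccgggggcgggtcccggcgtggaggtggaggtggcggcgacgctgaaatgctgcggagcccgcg
Spry2: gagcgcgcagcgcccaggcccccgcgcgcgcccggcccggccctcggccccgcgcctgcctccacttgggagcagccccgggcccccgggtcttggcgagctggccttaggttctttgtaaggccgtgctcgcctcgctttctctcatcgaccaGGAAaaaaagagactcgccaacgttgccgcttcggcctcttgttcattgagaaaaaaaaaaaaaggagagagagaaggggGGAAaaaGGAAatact
The window of *Dusp6* held 6 cores, that of *Spry2* held 3 and that of *Spry1* held 1. RefSeq gives *Etv5* a pair of starts, and their windows held 0 and 4 cores. Windows for 4 of the 10 genes were matched. This motif is common, as 93.4% of the 32851 windows of the same length held at least 1 core and the median window held 3. None of the 5 windows held the longer ETS site CCGGAAG, the AP-1 sites TGACTCA or TGAGTCA, the cyclic AMP response element TGACGTCA or the serum response factor motif known as the CArG box on either strand, and these were present in 6.91%, 4.46%, 1.55% and 1.47% of all windows, respectively. A match describes letters only and is not evidence of binding.

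The phosphatases came first in the order of roles. *Dusp4* (ENSMUSG00000031530, chr8:34807297-34819894, GRCm38) encodes a nuclear phosphatase that removes phosphate from ERK and related kinases. Its level was 13.9, 15.7 and 16.6 CPM in the control samples, 13.7, 13.7 and 13.8 on Collagen I, 16.5, 17.4 and 17.2 on fibronectin, and 40.7, 39.4 and 43.1 on Geltrex™. The lowest Geltrex™ sample was 2.27 times the highest of the others, which was a fibronectin sample. In the quasi-likelihood fit of edgeR, with every adjusted p corrected by Benjamini-Hochberg across the whole set of tested genes, *Dusp4* was higher on Geltrex™ than in control by 1.42 on the log2 scale (SE 0.087, adjusted p = 1.14e-08). It was also higher on Geltrex™ than on Collagen I by 1.58 and than on fibronectin by 1.27 on the log2 scale. The order of means was Geltrex™, fibronectin, control and Collagen I, in which fibronectin and control did not differ beyond their spread (log2 difference 0.14, 95% interval -0.04 to 0.33), and control and Collagen I did not pass the test (adjusted p = 0.407) although all Collagen I samples were below the lowest control sample, whereas fibronectin exceeded Collagen I by 0.31 (adjusted p = 0.0111).

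*Dusp6* (ENSMUSG00000019960, chr10:99263231-99267489) encodes a cytoplasmic phosphatase with high specificity for ERK. The control samples held 30.9, 23.4 and 30.4 CPM, the Collagen I samples 19.8, 18.7 and 20.6, the fibronectin samples 22.6, 26.7 and 30.9, and the Geltrex™ samples 51.2, 47.6 and 43.5. All 3 Collagen I samples were below the lowest control sample, while the control and fibronectin samples covered the same range. The Geltrex™ group exceeded control by 0.75 (SE 0.12, adjusted p = 0.000179), fibronectin by 0.83 and Collagen I by 1.27 on the log2 scale. On Collagen I the log2 difference from control was -0.52 (95% interval -0.78 to -0.25), which missed the threshold after adjustment (adjusted p = 0.0577). That value lay near the threshold and depended on tool, filter and samples. DESeq2 gave an adjusted p of 0.00683, and edgeR gave 0.000789 with no filter on low counts. The edgeR test also passed without control replicate 2 (adjusted p = 0.0359), fibronectin replicate 1 (0.0489) or fibronectin replicate 3 (0.0328). Of 19 alternatives, 14 left the difference uncalled. Fibronectin exceeded Collagen I by 0.44 (adjusted p = 0.00962), and control and fibronectin did not pass the test against each other.

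The 3 Sprouty genes encode membrane-associated inhibitors that act between growth factor receptors and Raf. *Spry1* (ENSMUSG00000037211, chr3:37639947-37644598), known for its role in the return of muscle stem cells to quiescence, gave 24.8, 19.96 and 19.5 CPM in control, 16.8, 15.3 and 20.9 on Collagen I, 9.58, 7.03 and 15.3 on fibronectin, and 32.6, 28.8 and 31.4 on Geltrex™. All fibronectin samples fell below all control samples, and the lowest Geltrex™ sample was 1.16 times the highest control sample. *Spry1* was the only one of the 10 genes that passed the test as lower on fibronectin than in control, by a log2 difference of -1.005 (SE 0.20, adjusted p = 0.00147), and it was also lower on fibronectin than on Collagen I (log2 difference -0.72, adjusted p = 0.00932). Geltrex™ exceeded fibronectin by 1.53 and Collagen I by 0.81 on the log2 scale. The difference between Geltrex™ and control was smaller, 0.53 (SE 0.19, 95% interval 0.12 to 0.94, adjusted p = 0.0452). It lost the call when control replicate 2 or 3, Collagen I replicate 1, fibronectin replicate 1 or any 1 of the Geltrex™ samples was left out, with adjusted p between 0.0537 and 0.132. In the order Geltrex™, control, Collagen I, fibronectin, control and Collagen I did not differ beyond their spread (adjusted p = 0.518). Of its exon length, 24.4% is shared with *Gm42922* on the opposite strand, which had 50 counts over the 12 samples against 5890 for *Spry1*.

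*Spry2* (ENSMUSG00000022114, chr14:105891947-105896819) was the most abundant Sprouty transcript in every group when levels were divided by exon length. It gave 65.4, 62.2 and 56.3 CPM in control, 63.7, 61.6 and 64.4 on Collagen I, 60.2, 45.3 and 72.4 on fibronectin, and 112, 108 and 102 on Geltrex™. The control, Collagen I and fibronectin samples overlapped, and all 3 comparisons among them were far from the threshold, with adjusted p of 0.572 to 0.895 and log2 differences no larger than 0.09 in size. Geltrex™ exceeded control by 0.81 (SE 0.12, adjusted p = 0.000105), Collagen I by 0.76 and fibronectin by 0.86 on the log2 scale. *Spry4* (ENSMUSG00000024427, on chromosome 18) had fewer reads, with 54 to 86 counts per sample outside the Geltrex™ group. Its level was 3.42, 2.90 and 3.52 CPM in control, 2.90, 2.01 and 3.19 on Collagen I, 2.27, 2.76 and 2.83 on fibronectin, and 5.68, 6.59 and 5.68 on Geltrex™. The 3 groups other than Geltrex™ lay close together and no comparison among them passed the test, although all fibronectin samples were below the lowest control sample (log2 difference -0.32, adjusted p = 0.208). Geltrex™ exceeded control by 0.87 (SE 0.18, adjusted p = 0.00130), Collagen I by 1.16 and fibronectin by 1.19 on the log2 scale.

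*Etv4* and *Etv5* encode sister ETS factors of the PEA3 group that are induced by FGF and ERK signaling. *Etv4* (ENSMUSG00000017724, chr11:101769742-101785371) gave 4.81, 5.32 and 3.78 CPM in control, 3.99, 3.49 and 4.53 on Collagen I, 7.39, 6.41 and 7.34 on fibronectin, and 11.4, 10.8 and 9.20 on Geltrex™. *Etv5* (ENSMUSG00000013089, chr16:22381309-22439719) gave 7.36, 7.12 and 7.86 CPM in control, 10.3, 9.22 and 9.49 on Collagen I, 11.6, 13.4 and 13.5 on fibronectin, and 19.0, 20.2 and 17.9 on Geltrex™. Both genes were raised on fibronectin as well as on Geltrex™, with no overlap between the fibronectin samples and any other group. Fibronectin exceeded control by 0.60 for *Etv4* (SE 0.15, adjusted p = 0.00735) and by 0.79 for *Etv5* (SE 0.11, adjusted p = 4.78e-05). Geltrex™ exceeded control by 1.17 for *Etv4* (SE 0.15, adjusted p = 2.01e-05) and by 1.36 for *Etv5* (SE 0.11, adjusted p = 1.23e-07). The step from fibronectin to Geltrex™ was 0.57 on the log2 scale for both genes, with adjusted p of 0.0116 for *Etv4* and 0.000903 for *Etv5*. For *Etv4* that step lost the call without fibronectin replicate 2 (adjusted p = 0.0512), Geltrex™ replicate 1 (0.0658) or Geltrex™ replicate 2 (0.0533). On Collagen I, every *Etv5* value was above every control value (log2 difference 0.38, SE 0.11, adjusted p = 0.106) and the *Etv4* values overlapped those of control (-0.22, adjusted p = 0.538), but neither difference passed the test and the genes were not tested against each other.

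*Egr1* (ENSMUSG00000038418, on chromosome 18) encodes a zinc-finger factor that is induced within minutes of ERK activation through serum response factor and its ETS partners. The control samples held 146, 107 and 118 CPM, the Collagen I samples 98.4, 69.4 and 110, the fibronectin samples 57.9, 66.7 and 133, and the Geltrex™ samples 260, 236 and 250. The Geltrex™ samples were close to each other and the fibronectin samples were not, since replicate 3 was about at the level of control. The coefficient of variation was 4.82% on Geltrex™ and 47.6% on fibronectin, the highest of any of the 10 genes in any group. *Egr1* was higher on Geltrex™ than in control by 1.01 (SE 0.24, adjusted p = 0.00369), than on Collagen I by 1.43 and than on fibronectin by 1.53 on the log2 scale. Fibronectin differed from control by -0.53 (95% interval -1.03 to -0.03), which missed the threshold (adjusted p = 0.101). Without fibronectin replicate 3 the log2 difference was -0.99 (adjusted p = 0.000389) and *Egr1* was then also lower on fibronectin than on Collagen I (adjusted p = 0.0106). Collagen I and control did not differ beyond their spread (adjusted p = 0.419). Fibronectin replicate 3 was the highest sample of its group for 8 of the 10 genes and the lowest for 0, and Collagen I replicate 3 was likewise the highest for 8 and the lowest for 0. Among the 32 other ERK target genes described below, each of these samples was the highest for 17 and the lowest for 9. The cause was not tested.

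*Fosl1* (ENSMUSG00000024912, chr19:5447547-5455946) encodes the AP-1 subunit FRA-1, whose transcript accumulates under sustained ERK activity. It had the fewest reads of the 10 genes, with 9 to 17 counts per sample in control, 7 to 13 on Collagen I, 26 to 33 on fibronectin and 75 to 103 on Geltrex™. In CPM the values were 0.676, 0.587 and 0.382 in control, 0.303, 0.483 and 0.388 on Collagen I, 1.11, 1.09 and 1.28 on fibronectin, and 3.20, 4.24 and 3.61 on Geltrex™. The 3 levels were separate, in that control and Collagen I overlapped, fibronectin lay above both and Geltrex™ above fibronectin. Its increase on Geltrex™ over control was the largest of the 10, 2.73 on the log2 scale (SE 0.26, 95% interval 2.19 to 3.27, adjusted p = 8.19e-07), and its increase over Collagen I was 3.21, or 9.23-fold. Fibronectin exceeded control by 1.07 (SE 0.28, adjusted p = 0.00898) and Collagen I by 1.54, and Geltrex™ exceeded fibronectin by 1.66 (adjusted p = 0.000103). A share of 57.2% of its exon length overlaps *Ccdc85b* on the opposite strand, and whether the counting used strand is not given in the sources used here, so reads of the pair may not be told apart. *Ccdc85b* had 1776 counts over the 12 samples against 418 for *Fosl1*, and it was itself higher on Geltrex™ than in control by 0.79 (adjusted p = 0.0214), while its difference between fibronectin and control was -0.34 (adjusted p = 0.337). It was also higher on Geltrex™ than on Collagen I by 0.82 (adjusted p = 0.0164) and than on fibronectin by 1.13 (adjusted p = 0.00478).

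*Phlda1* (ENSMUSG00000020205, chr10:111506286-111508645), a pleckstrin homology-like protein gene used as a marker of ERK pathway output, gave 50.1, 36.7 and 45.4 CPM in control, 43.0, 39.2 and 60.0 on Collagen I, 36.5, 44.1 and 56.6 on fibronectin, and 125, 119 and 124 on Geltrex™. The first 3 groups overlapped and none of their comparisons passed the test, with log2 differences no larger than 0.11 in size. Geltrex™ exceeded control by 1.47 (SE 0.16, adjusted p = 4.36e-06), Collagen I by 1.37 and fibronectin by 1.42 on the log2 scale. Its coefficient of variation on Geltrex™ was 2.50%, the lowest of the 10 genes in that group. Of its exon length, 33.0% is shared with *Gm28592* on the opposite strand, which had 0 counts over the 12 samples.

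Divided by exon length, the levels of the 10 genes spanned a wide range. On Geltrex™, *Phlda1* with 55.5, *Egr1* with 55.4 and *Spry2* with 51.5 CPM per kb were the most abundant, followed by *Dusp6* with 15.1, *Dusp4* with 14.99 and *Spry1* with 10.6. The low-abundance members were *Etv5* with 4.64, *Etv4* with 3.37, *Fosl1* with 1.81 and *Spry4* with 1.26 CPM per kb. In control the same 3 genes led, in the order *Spry2* with 29.4, *Egr1* with 27.6 and *Phlda1* with 19.98, and *Fosl1* was last with 0.270. *Fosl1* lay below *Spry4* in control and above it on fibronectin (0.571 against 0.551 CPM per kb) and Geltrex™, an order that was not tested.

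The 10 genes were chosen with earlier results of these data known, so the shares given here describe them and are no test of the list. Counted over the comparisons, all 10 genes passed the test as higher on Geltrex™ than in control, where 16.4% of all genes tested were higher. Their median log2 fold change was 1.09, beside -0.012 over all genes tested, and 6 of the 10 reached a fold change of 2, which 4.15% of all genes tested did. All 10 were also higher on Geltrex™ than on Collagen I (19.0% of all genes, median 1.32) and than on fibronectin (9.06% of all genes, median 1.23), with 7 genes at a fold change of 2 or more in the former comparison (4.56% of all genes) and 6 in the latter (2.26% of all genes). These comparisons share the Geltrex™ samples, and 4.23% of all genes tested were higher on Geltrex™ in all 3. Against control, fibronectin raised 3 of the 10 genes, *Etv4*, *Etv5* and *Fosl1*, where 17.1% of all genes were higher, and lowered *Spry1*, where 14.7% were lower. Against Collagen I, fibronectin was higher for 5 genes, the same 3 with *Dusp4* and *Dusp6* (22.9% of all genes), and lower for *Spry1* (22.1%). In either direction together, fibronectin changed 4 of the 10 genes against control (31.9% of all genes) and 6 against Collagen I (45.0%), shares not far from the background. Between Collagen I and control, 0 of the 10 passed edgeR's test, where 1.12% of all genes did. In that comparison 2 genes, *Dusp6* and *Etv5*, had an unadjusted p under 0.05, and DESeq2 called 1, *Dusp6*. Over all genes DESeq2 called 452 there, where edgeR called 162.

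**Figure D2:**
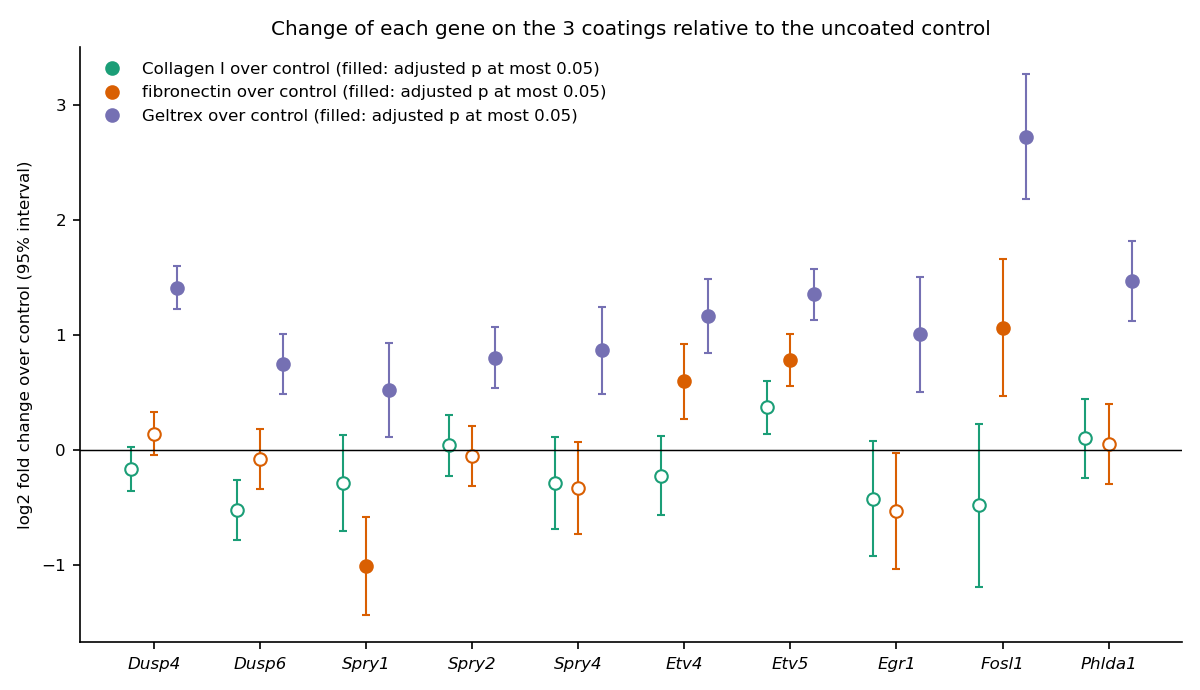
The log2 fold change of each gene on Collagen I, fibronectin and Geltrex™ relative to the shared control samples, with 95% intervals; filled points have an adjusted p of at most 0.05. All 10 Geltrex™ points are filled and above 0, 4 fibronectin points are filled with *Spry1* below 0, and no Collagen I point is filled.

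The 10 genes did not follow one profile across the 12 samples. Likeness was measured as the root mean square difference in log2 CPM after each gene was centred on its own mean, so that 0 would mean the same profile. The closest pair was *Dusp6* with *Spry4* (0.217), followed by *Dusp4* with *Phlda1* (0.253), while *Spry1* and *Fosl1* were farthest apart (1.11). Among 12310 other genes with a mean of at least 1 CPM, *Etv5* was most like *Efnb2* (0.095), which encodes the ligand ephrin-B2, and *Dusp4* was most like *Trim16* (0.096). The nearest gene was *Dmp1* for *Spry2* (0.115), *Rnd3* for *Dusp6* (0.126), and *Fhl2*, a LIM-domain protein gene, for *Etv4* (0.144). *Phlda1* was nearest to the early gene *Plk3* (0.170), and then to *Ier5* (0.180) and *Smad7* (0.206). *Spry4* was nearest to the forkhead factor gene *Foxc1* (0.192) and *Spry1* to *H2-T24* (0.194), with the early genes *Btg2* (0.215) and *Ier2* (0.231) after it. *Egr1* lay nearest to the non-coding RNA *Rn7sk* (0.224).

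A wider list of 32 other genes linked to ERK output, most of them known to respond to ERK, was read beside the 10, all of them tested. It included the ETS factor genes *Elk1* and *Elk4*, whose proteins ERK phosphorylates, so their transcripts need not respond to ERK. On Geltrex™ against control, 15 of the 32 were higher (16.4% of all genes tested) and 2 lower (16.6%), with a median log2 fold change of 0.45. The largest increases were in *Myc*, the growth-promoting transcription factor gene (2.77), the nuclear ERK phosphatase gene *Dusp5* (2.31) and *Errfi1* (2.15), whose product inhibits the EGF receptor. *Myc* had 16.4, 12.3 and 15.4 CPM in control, 15.3, 13.2 and 13.4 on Collagen I, 9.51, 12.5 and 20.2 on fibronectin, and 106, 97.0 and 96.4 on Geltrex™. The genes that fell were *Dusp2* (-1.26) and *Dusp7* (-0.69), both phosphatases, of which *Dusp2* did not exceed 1.17 CPM in any sample. Against fibronectin, 15 were higher on Geltrex™ (9.06% of all genes tested), led by *Myc* (2.83), *Dusp1* (2.40) and *Dusp5* (2.17). Another 3 were lower, *Dusp7* (-0.66), *Il17rd* (-0.52) and *Elk4* (-0.26), beside 1491 of all 14499 genes tested. Against Collagen I, 15 were higher (19.0% of all genes tested), led by *Myc* (2.84), *Errfi1* (2.51) and *Dusp5* (2.47). Another 2 were lower, *Dusp2* (-1.27) and *Dusp7* (-0.68), beside 2633 of all 14499 genes tested.

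On fibronectin against control, 7 genes of the wider list were higher (17.1% of all genes tested), led by the cyclin gene *Ccnd1* (1.44), the urokinase receptor gene *Plaur* (0.61) and the FGF signaling inhibitor gene *Il17rd* (0.54), and 7 were lower (14.7% of all genes tested), led by the AP-1 subunit gene *Fos* (-1.56), *Dusp2* (-1.22) and *Dusp1* (-0.90). Without control replicate 1 the counts were 6 higher and 1 lower, without fibronectin replicate 1 they were 5 and 2, and without fibronectin replicate 2 they were 6 and 2. Calls over all genes tested, in either direction, also fell in these fits, from 4618 to 3162, 3458 and 3485, respectively. *Fos* had 1.63, 1.42 and 4.70 CPM on fibronectin beside 8.95, 8.29 and 5.65 in control, and *Dusp1* 29.5, 27.7 and 80.4 beside 95.5, 72.7 and 88.5, so replicate 3 of fibronectin was again the sample nearest to control. Against Collagen I, fibronectin was higher for 10 genes (22.9% of all genes tested), led by *Ccnd1* (1.46), *Plaur* (1.44) and *Egr2* (0.98). It was lower for 4 (22.1%), including *Dusp1* (-1.37), *Dusp2* (-1.24) and *Fos* (-1.23). Between Collagen I and control, *Egr3* (-0.87) and *Egr2* (-0.81), both early genes of the EGR family, were lower on Collagen I and no gene of the list was higher. In that comparison 1.12% of all genes tested passed in either direction.

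**Figure D3:**
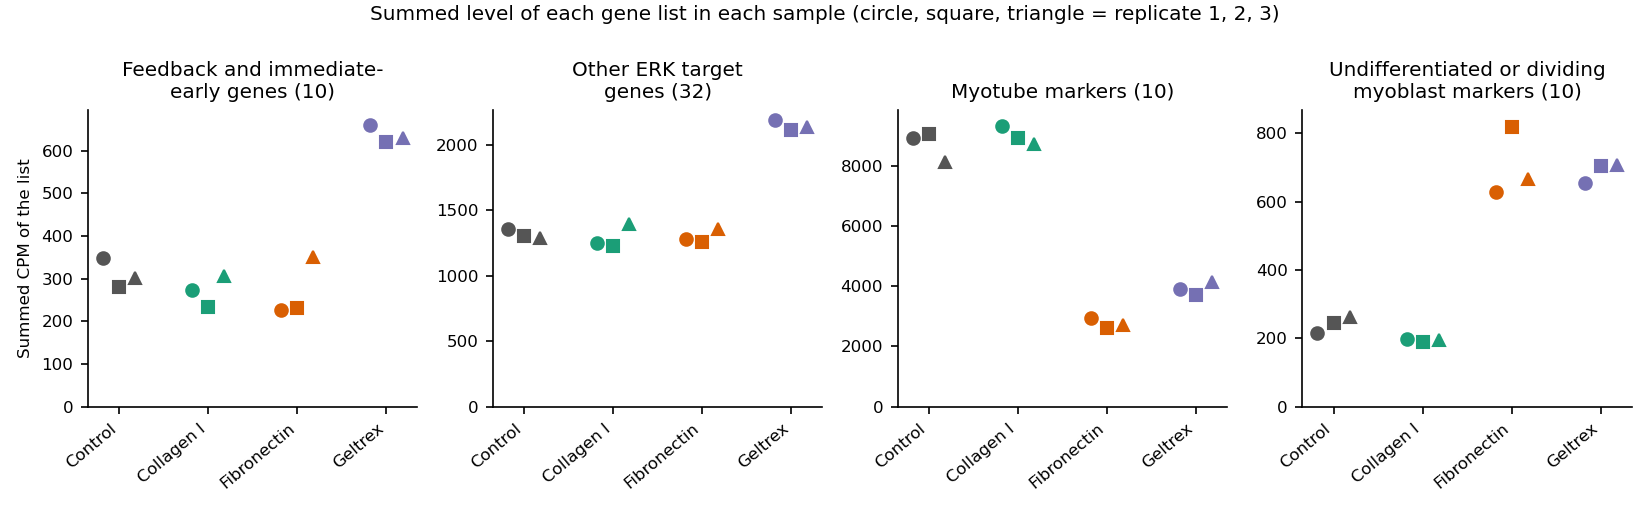
Summed CPM of 4 gene lists in each sample on linear axes that start at 0, with circles, squares and triangles for replicates 1, 2 and 3. The 10 genes summed to 621 to 660 CPM on Geltrex™ and 226 to 350 elsewhere, and the 32 other target genes to 2117 to 2189 on Geltrex™ and 1225 to 1397 elsewhere, whereas the myotube and the dividing-myoblast markers put fibronectin and Geltrex™ on 1 side and control and Collagen I on the other.

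The genes of the ERK cascade itself were read beside its targets. On Geltrex™, *Mapk3*, which encodes ERK1, differed from control by -0.03 on the log2 scale (adjusted p = 0.834). Of the genes of the MEK kinases above it, *Map2k1* was higher by 0.23 (adjusted p = 0.0272) and *Map2k2* differed by -0.04 (adjusted p = 0.887). Of the 37 cascade genes 35 were tested, and 13 were higher (16.4% of all genes tested) and 5 lower (16.6%) on Geltrex™ than in control. The largest increases were in the ligand genes *Hgf* (1.92), which encodes hepatocyte growth factor, and *Ereg* (1.75), which encodes the EGF receptor ligand epiregulin. Among the 5 that were lower, the lowest values were for the ligand genes *Igf1* (-0.52) and *Fgf2* (-0.42). *Igf2* had 0 counts in every sample and shares 62.8% of its exon length with *Gm49394*, and *Rps6ka1* did not reach the count minimum.

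Some cascade genes had every Geltrex™ sample above all 9 others, among them *Ereg*, *Hgf*, *Fgf7* and *Map2k1*, an arrangement found for 8.21% of all genes tested. The list did not share it as a whole, since *Fgf2* and *Igf1* had their lowest group mean on Geltrex™. *Ereg* had 12.6, 12.4 and 13.3 CPM in control, 10.7, 10.9 and 12.1 on Collagen I, 14.4, 16.9 and 13.4 on fibronectin, and 43.2, 42.6 and 43.3 on Geltrex™. *Hgf* was raised in 2 steps, from 39.7 to 63.0 CPM in control and 35.7 to 68.6 on Collagen I to 102 to 127 on fibronectin and 199 to 207 on Geltrex™. Against fibronectin, 6 cascade genes were higher on Geltrex™ (9.06% of all genes tested), led by *Ereg* (1.53) and the fibroblast growth factor gene *Fgf7* (0.89). Another 5 were lower (1491 of all 14499 genes tested), with *Fgf2* (-0.87) and *Igf1* (-0.60) the lowest. In this comparison *Map2k1* was higher by 0.29 (adjusted p = 0.0123), while *Map2k2* (0.35) and *Mapk3* (0.04) did not pass the test. The count of 11 in both directions rose to 17 without fibronectin replicate 3 and fell to 7 without Geltrex™ replicate 1. Calls over all genes tested went from 2805 to 3301 and to 1742 in these fits, respectively. Against Collagen I, 17 cascade genes were higher on Geltrex™ (19.0% of all genes tested), with *Hgf* and *Ereg* both at 1.94. *Hras* (-0.73) and *Araf* (-0.30) were lower, beside 2633 of all 14499 genes tested. *Mapk3* (-0.15), *Map2k1* (0.10) and *Map2k2* (-0.19) did not pass.

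**Figure D4:**
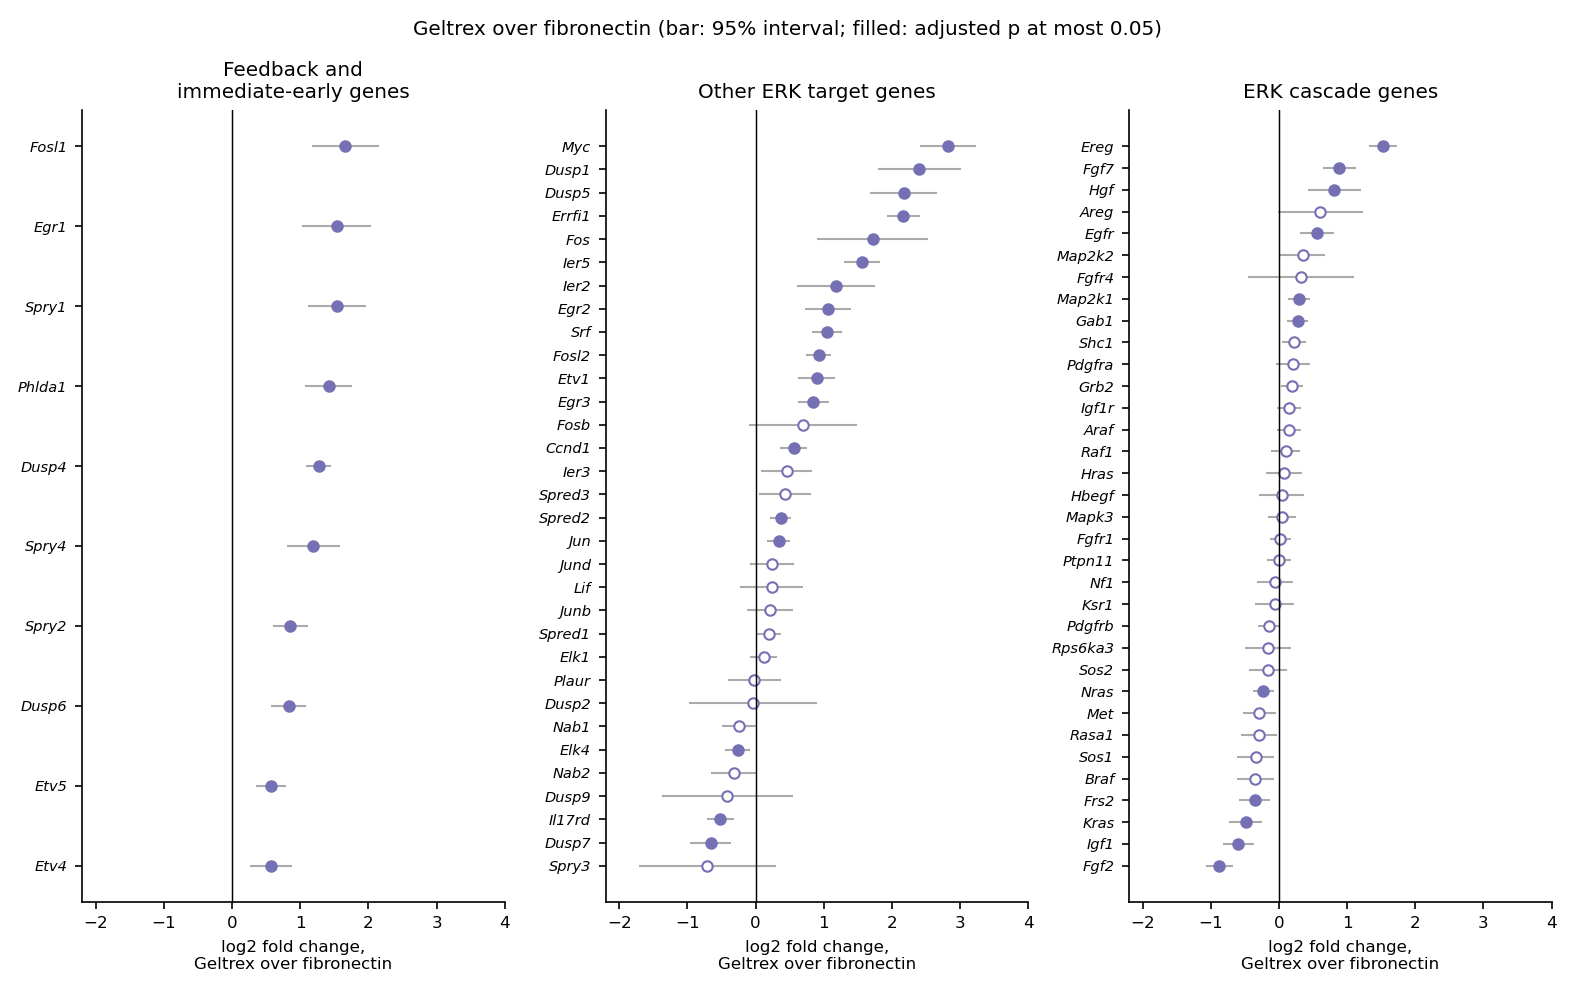
The log2 fold change of each gene on Geltrex™ over fibronectin, with its 95% interval, for the 10 feedback and early genes, the 32 other ERK target genes and tested cascade genes; filled points have an adjusted p of at most 0.05. All 10 points of the first panel lie above 0, from 0.57 for *Etv4* and *Etv5* to 1.66 for *Fosl1*, whereas the other panels hold filled points on both sides of 0.

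On fibronectin, 16 of the 35 tested cascade genes passed the test against control, beside 31.9% of all genes tested. Of these, 13 were higher (17.1% of all genes), led by *Hgf* (1.11) and its receptor gene *Met* (0.95), and 3 were lower (14.7%), with *Fgfr4* (-0.97) and *Araf* (-0.52) the lowest. Against Collagen I 21 were higher (22.9% of all genes tested), led by *Hgf* (1.13) and the EGF receptor ligand gene *Areg* (1.09). Another 6 were lower (22.1%), with *Fgfr4* (-1.06) and *Hras* (-0.81) the lowest. On fibronectin against Collagen I, *Map2k1* was lower by a log2 difference of -0.19 (adjusted p = 0.0480) and *Map2k2* by one of -0.54 (adjusted p = 0.00991), whereas *Mapk3* (-0.19, adjusted p = 0.131) did not pass. Against control, none of these 3 kinase genes passed on fibronectin (*Mapk3* -0.07, *Map2k1* -0.06, *Map2k2* -0.38). On Collagen I against control, *Fgf7* (-0.73) and the platelet-derived growth factor receptor gene *Pdgfrb* (-0.43) were lower, and no cascade gene was higher. In that comparison 1.12% of all genes tested passed in either direction. *Mapk3* (0.12), *Map2k1* (0.13) and *Map2k2* (0.16) did not pass.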

How the data were processed

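RNA-seq of 12 libraries was examined. The authors checked reads with FastQC, trimmed them with Trimmomatic, used HISAT2 for alignment and featureCounts for counting, and deposited raw counts per gene, with nothing normalized, filtered or pooled. The genome build and the strand rule of the counting are not given in the sources used here. All 55536 identifiers are in GENCODE M21 (GRCm38), which gave symbols, positions and exon lengths.

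Genes were filtered with filterByExpr (minimum count 10, minimum total 15), scaled by TMM and fitted with edgeR 4.0.16 (R 4.3.3) in 1 quasi-likelihood model of the 4 groups with 8 residual degrees of freedom, giving 6 comparisons. The study names DESeq2 but not which samples entered each fit. The Benjamini-Hochberg adjustment ran over the 14499 genes, and a gene passed at an adjusted p of at most 0.05, with no fold minimum. CPM used TMM-scaled library sizes, and likeness used log2 CPM with a prior count of 2. The script was tested on simulated data. Depth limits precision mainly for *Fosl1* and *Spry4*.

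The 10 genes and the other lists were chosen with earlier results of these data known. All 10 were named. From the wider target list at most 3 genes, and from the cascade list at most 2, were named in each direction per comparison, by size among those that passed, with *Mapk3*, *Map2k1* and *Map2k2* always given; *Fos*, *Dusp1*, *Igf2* and *Rps6ka1* were otherwise singled out after their values were seen. For likeness the nearest 3 genes were computed per member. Some genes that these rules name are not reported here. Alternatives were DESeq2 1.42.0, size factors in place of TMM, no filter, a filter of at least 10 counts in every sample, only the groups compared, a replicate block, a fold minimum of 2 and each library left out.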

Additional observations from a re-analysis of the deposited data

How the results depend on the processing

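Of 1134 alternative values for the 60 differences of the 10 genes (10 genes in 6 comparisons), 1109 stayed on the same side of the threshold in the same direction, 15 lost a call, 10 gained one and 0 of the called ones changed sign. The calls that moved belonged to 8 of the 60 differences, among *Dusp6*, *Spry1*, *Etv4* and *Egr1*. *Spry1* on Geltrex™ against control also lost its call with at least 10 counts in every sample (adjusted p = 0.0587), a filter under which *Fosl1* could not be tested. With the 3 Geltrex™ samples summed into 1, an alternative chosen after seeing the data in which the lone sample is assumed to vary like the other groups, *Spry1* against control (0.252) and Collagen I (0.0689), *Etv4* against fibronectin (0.148) and *Egr1* against control (0.0634) lost their calls. With no filter on low counts *Egr1* passed as lower than control on both Collagen I and fibronectin. The causes were not tested.

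With a minimum fold change of 2, the number of the 10 genes called was 2 for fibronectin against control, 6 for Geltrex™ against control, 1 for Collagen I against fibronectin and 6 for fibronectin against Geltrex™. For Collagen I against control it was 1 with DESeq2 and 2 with no filter. Over all genes, that comparison had 162 calls in the main fit, 452 with DESeq2 and 581 with no filter. Among the other ERK target genes, the fold minimum left 0 for Collagen I against control, 3 for fibronectin against control, 10 for Geltrex™ against control, 5 for Collagen I against fibronectin and 9 for fibronectin against Geltrex™. Collagen I against control had 4 with DESeq2, 8 with no filter, 1 with only the groups compared and 1 with Geltrex™ summed, and the sum left 11 for fibronectin against Geltrex™. Among cascade genes the fold minimum left 0, 1, 5, 3, 4 and 1 for Collagen I against control, fibronectin against control, Geltrex™ against control, Collagen I against fibronectin, Collagen I against Geltrex™ and fibronectin against Geltrex™. Collagen I against control had 6 with DESeq2, 6 with no filter, 1 with only the groups compared and 1 with Geltrex™ summed, and the sum left 7, 8 and 3 for Geltrex™ against control, Collagen I against Geltrex™ and fibronectin against Geltrex™.

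With 1 library left out at a time, the 10 genes gave 0 to 1 calls for Collagen I against control (1 without control replicate 2, fibronectin replicate 1 or fibronectin replicate 3, each time *Dusp6*), 4 to 5 for fibronectin against control, 9 to 10 for Geltrex™ against control, 6 to 7 for Collagen I against fibronectin, 10 for Collagen I against Geltrex™ and 9 to 10 for fibronectin against Geltrex™. The other ERK target genes gave, in the same order, 1 to 3, 7 to 15, 14 to 17, 10 to 15, 16 to 19 and 17 to 20. The cascade genes gave 1 to 5, 11 to 20, 13 to 21, 20 to 28, 13 to 20 and 7 to 17. Calls over all genes were 49 to 244 for Collagen I, 3162 to 5302 for fibronectin and 3584 to 5345 for Geltrex™, each against control. Collagen I gave 5146 to 6651 against fibronectin and 4041 to 5614 against Geltrex™. Fibronectin against Geltrex™ gave 1738 to 3471. For Collagen I against control, the other target genes fell from 2 to 1 without control replicate 1, Collagen I replicate 1 or 2, or Geltrex™ replicate 1 or 3, and the cascade genes went from 2 to 4 without control replicate 1 or Collagen I replicate 1, to 1 without Collagen I replicate 2, and to 5 without fibronectin replicate 2 or 3.

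Groups share replicate numbers, and the labels do not say whether these pair the samples. The correlation of same-numbered deviations from the group means ran from -0.15 to 0.23 and in no comparison exceeded 0.1 for all 3 numbers. For Collagen I against fibronectin it was above 0 for all 3 (0.047, 0.169 and 0.225). Weak correlations of this kind cannot decide whether samples were paired or shared a batch. When the replicate number was fitted as a block, the 10 genes gave 0, 5, 10, 6, 10 and 10 calls in the order above, and the block changed 1 of the 60 calls, *Egr1* on fibronectin against control (adjusted p = 0.0347).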
